A study of Mus musculus with 5 samples.

Results

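The sirtuins are a family of 7 mammalian deacylases, Sirt1 to Sirt7, and all 7 were measured, each by 1 probe set, among 19938 genes. They were taken by gene symbol, with the brightest probe set of a gene kept where there were several. RNA of whole liver tissue from male mice about 10 months old was hybridised to 5 mouse gene arrays. The 3 arrays of the first group were liver tumours from mice with the genotype Hdac3FL/-; AlbCre+, which carry a floxed and a null allele of the histone deacetylase gene Hdac3. The 2 arrays of the second group were normal livers from mice with the genotype Hdac3FL/+; AlbCre+, which carry a floxed and a wild-type allele. In all mice Cre was driven by the albumin promoter, active in hepatocytes, so the control livers share the Cre transgene and a floxed allele with the tumours. Every null sample was a tumour and every control was normal tissue, so genotype and tumour cannot be told apart. Arrays of a group are biological replicates, per the labels. In bulk tissue, fewer cells of a type and less RNA per cell cannot be told apart either.

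Sirtuins remove acetyl and other acyl groups from lysines of proteins and consume a molecule of NAD+ in each reaction, which sets them apart from the zinc-dependent deacetylases such as Hdac3. Sirt1, Sirt6 and Sirt7 are mainly nuclear, Sirt2 is mainly cytosolic, and Sirt3, Sirt4 and Sirt5 lie in mitochondria. In liver they are known for the control of fasting metabolism, fat oxidation, urea synthesis, glycolysis and genome maintenance.

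The promoters of 4 members are shown because 3 of these genes passed the test described below (Sirt3, Sirt6 and Sirt7) and because Sirt1 holds the binding motif of proteins whose genes, Myc and Arntl, rose in the tumours. The sequences are from RefSeq on GRCm38.p6, run 5′ to 3′ on the strand of the gene and end at the base before the start site. All 7 members matched a RefSeq promoter window, and Sirt3 and Sirt6 had 2 windows, of which the more upstream is shown. Capitals mark CACGTG in Sirt1 and CCGGAAG, in either orientation, in the other genes.
Sirt1, chr10:63339036-63339155, minus strand: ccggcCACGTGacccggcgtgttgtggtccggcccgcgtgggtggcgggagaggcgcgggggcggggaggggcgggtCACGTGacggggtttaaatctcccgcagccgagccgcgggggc
Sirt3, chr7:140882310-140882409, minus strand: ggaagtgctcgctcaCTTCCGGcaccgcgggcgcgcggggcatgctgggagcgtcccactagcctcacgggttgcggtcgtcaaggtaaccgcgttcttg
Sirt6, chr10:81627567-81627666, minus strand: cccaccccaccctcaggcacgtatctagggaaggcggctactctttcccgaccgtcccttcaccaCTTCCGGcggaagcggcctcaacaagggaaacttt
Sirt7, chr11:120625015-120625114, minus strand: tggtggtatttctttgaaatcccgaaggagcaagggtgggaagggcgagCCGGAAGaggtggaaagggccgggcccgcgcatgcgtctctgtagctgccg

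Motifs were searched on both strands of the 250 bases before each start site. CCGGAAG, the core of sites for ETS-family factors, was found in a window of Sirt3, Sirt6 and Sirt7 and in no window of the other members, against 6.91% of 32851 promoter windows of all genes. Its first base lay 85 bases before the start site in Sirt3, 35 in Sirt6 and 51 in Sirt7. It ran along the gene in Sirt7 and on the opposite strand in Sirt3 and Sirt6. CACGTG, the E-box bound by Myc and by the Clock and Bmal1 proteins, occurred at 2 places in Sirt1, beginning 115 and 43 bases before the start site, and in 6.02% of all windows. GCATGCG, part of the motif of the factor NRF1, was found in Sirt6 and Sirt7 and in 3.02% of all windows. The GC box GGGCGG was found in 6 members, Sirt4 being the exception, and in 32.7% of all windows. In Sirt3 and Sirt6 it lay in the window that is not shown. CCAAT was found in 3 members and in 33.8% of all windows, and TATAAA in 0 members and in 12.4% of all windows. The 7 members had 9 windows in all, and each motif was found in as many of these windows as members. The motifs were chosen with the members' values known, and a match is a description of these letters, not of a bound site.

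Median log2 values of the arrays were all between 5.66 and 5.77, and precision is limited by there being only 5 arrays. Hdac3 itself had log2 values of 6.78, 6.57 and 6.65 in the tumours, against 8.21 and 8.37 in the control livers. Of 12 macrophage markers, 10 rose and 0 fell, and the mean log2 value over the list was 9.74, 8.95 and 9.56 in tumours 1, 2 and 3, against 6.86 and 7.32 in the controls. Among them C1qc, Cd68, Ctss and Lyz2 rose by between 2.26 and 3.33. The 2 that did not pass, Clec4f and Cd5l, lay above both controls in tumour 1 and below both in tumour 3. Clec4f had log2 values of 9.28, 6.37 and 5.03 in the tumours, against 7.51 and 7.87 in the controls. Those of Cd5l were 9.93, 7.61 and 5.54, against 7.09 and 7.57. Of 9 markers of dividing cells, 7 rose and 0 fell, with means of 6.14, 7.02 and 7.10 in the tumours, against 4.88 and 4.79 in the controls, and Ect2, Cdk1, Tpx2 and Prc1 were among those that rose, Ect2 by 2.63. Of 8 hepatocyte markers, only Ttr, which encodes transthyretin, passed the test (a fall, limma adjusted p = 0.0463), and the list means were 12.49, 12.47 and 12.26 in the tumours, against 12.53 and 12.59 in the controls. Emcn alone rose among 7 endothelial markers and Acta2 alone among 9 of stellate cells and fibroblasts, by 2.11 and 2.44. Markers of cholangiocytes (0 of 5, Krt19 and Krt7 having the smallest p), lymphocytes (0 of 7, Cd8a and Cd3e) and neutrophils (0 of 6, Csf3r and Ly6g) did not pass limma's test, with 2, 1 and 1 at an unadjusted p under 0.05. Over all 19938 genes, 5023 had an unadjusted limma p under 0.05. These marker calls also rested on both controls. With either control left out, a single control remained and most calls over all genes were lost. Nearly all of the macrophage and dividing-cell calls were lost too, so that loss is not particular to the markers. Without tumour 2, 3 of the 7 dividing-cell calls held. Emcn, Acta2 and Ttr lost their calls as well when either control was left out. Emcn also lost its call without tumour 1 (limma adjusted p = 0.0552), and Ttr without tumour 1 (0.0597) or tumour 2 (0.0818). Among all genes 5.60% rose and 4.96% fell. The part of these markers in the sirtuin results was not tested.

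Of the 7 sirtuins, Sirt3 and Sirt7 fell, Sirt6 rose and 4 did not pass the test. All 3 tumours lay below both control livers for 6 members, Sirt1 to Sirt5 and Sirt7, and above both for Sirt6, so the groups overlapped for 0 of 7 members, and did not overlap for 44.2% of all genes. Over all genes, 4.96% fell and 5.60% rose at a limma adjusted p under 0.05, and all tumours lay below both controls for 23.1% and above both for 21.1%. The median log2 change of the members was −0.47, and 6 of 7 were negative. The median over all genes was −0.02, with 52.9% of genes negative. The members were chosen with earlier results of these data known, so these counts are a description of the family.

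**Figure D1:**
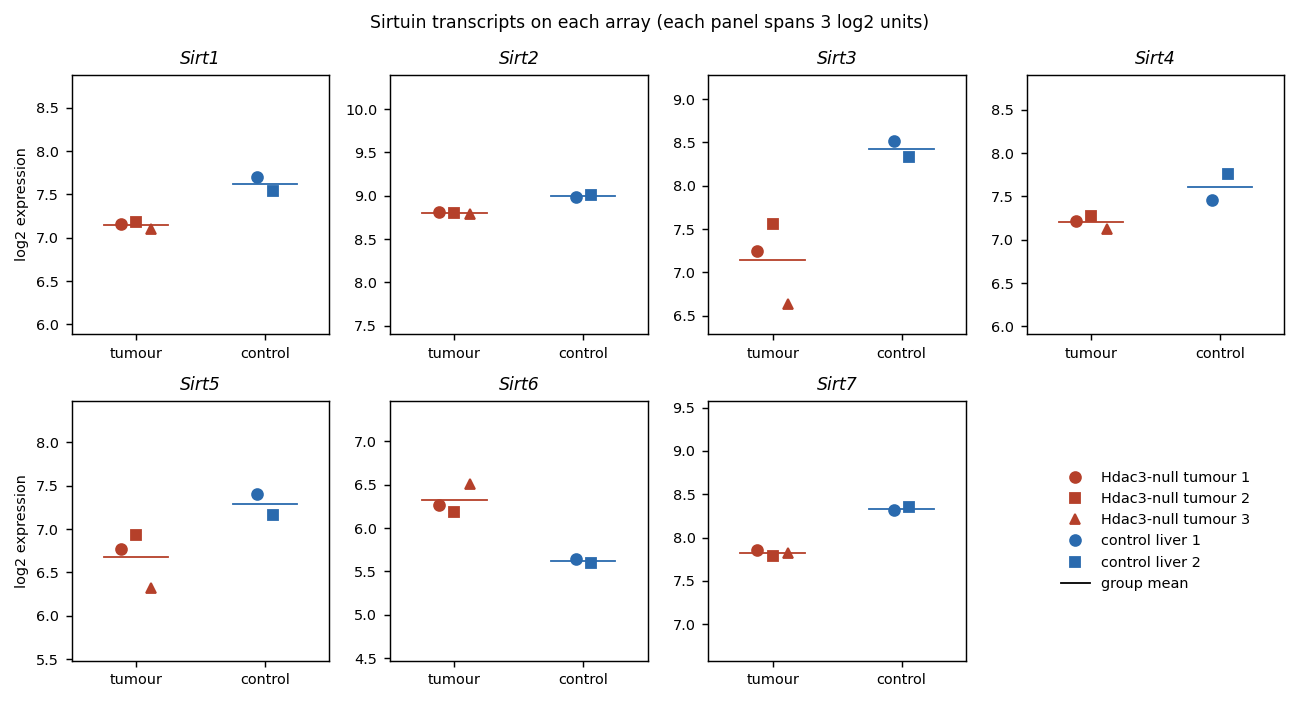
Log2 expression of each sirtuin in the 3 Hdac3-null tumours (red) and the 2 control livers (blue), with the group mean as a line and each panel drawn over the same span of log2 units. The tumours lie below both controls in every panel except Sirt6, where they lie above, and the tumours are spread widest for Sirt3 (6.63 to 7.56) and Sirt5 (6.32 to 6.93).

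Sirt3, the main deacetylase of the mitochondrial matrix, had the largest difference of the family. Its log2 values were 7.24, 7.56 and 6.63 in tumours 1, 2 and 3, against 8.51 and 8.33 in the control livers. Every tumour was low, and tumour 3 was the lowest by a wide margin. Tumour 3 was also least like the controls over all genes. Its Pearson correlations with them were 0.908 and 0.906, against 0.936 to 0.948 for tumours 1 and 2. The group means were 7.15 ± 0.47 in the tumours and 8.42 ± 0.13 in the controls (SD, n = 3 and 2). Sirt3 fell by 1.27 on the log2 scale (95% confidence interval −1.95 to −0.595; limma adjusted p = 0.041), which is a level 2.42-fold lower in the tumours, and 93.6% of all genes had a smaller absolute change. The gap between the highest tumour and the lowest control, 0.77 log2 units, was smaller than the range of 0.93 among the tumours and larger than the range of 0.18 between the controls.

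The other mitochondrial members were lower in all tumours but did not pass the test. Sirt5, which removes succinyl, malonyl and glutaryl groups and acts on the urea cycle enzyme Cps1, had log2 values of 6.77, 6.93 and 6.32 in the tumours, against 7.41 and 7.17 in the controls. Its difference was −0.62 (95% confidence interval −1.13 to −0.10; limma adjusted p = 0.135), and tumour 3 was again the lowest array. Sirt4, an inhibitor of glutamate dehydrogenase and of fat oxidation, had log2 values of 7.21, 7.28 and 7.13 in the tumours, against 7.46 and 7.76 in the controls. The difference was −0.40 (95% confidence interval −0.75 to −0.05; limma adjusted p = 0.145), and the controls differed from each other by 0.30, more than the range of 0.15 among the tumours. For Sirt3, Sirt4 and Sirt5 alike, tumour 2 was the highest tumour and tumour 3 the lowest, an order that the nuclear member Sirt1 shared and that was reversed for Sirt6.

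Sirt6, a nuclear deacetylase of histone H3 that acts in telomere and double-strand break maintenance and in the repression of glycolytic genes, was the only member higher in the tumours. Its log2 values were 6.27, 6.19 and 6.51 in tumours 1, 2 and 3, against 5.64 and 5.59 in the control livers. The controls lay close together and every tumour stood clear of them, by at least 0.54 log2 units. The means were 6.32 ± 0.17 in the tumours and 5.62 ± 0.04 in the controls (SD, n = 3 and 2). Sirt6 rose by 0.70 on the log2 scale (95% confidence interval 0.35 to 1.05; limma adjusted p = 0.0348), a level 1.63-fold that of the controls.

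Sirt7, a nucleolar deacetylase that promotes transcription of ribosomal RNA genes, was the most uniform of the called members. It had log2 values of 7.86, 7.79 and 7.82 in the tumours, against 8.32 and 8.35 in the controls. Both groups were tight, with ranges of 0.06 and 0.03, and the gap between them was 0.46. Sirt7 fell by 0.51 (95% confidence interval −0.79 to −0.23; limma adjusted p = 0.044), a level 1.43-fold lower in the tumours.

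Sirt1, the deacetylase of p53, FOXO factors and the coactivator Pgc-1alpha, had log2 values of 7.16, 7.18 and 7.10 in the tumours, against 7.70 and 7.54 in the controls. The tumours were closer to each other than the controls were. The difference was −0.47 (95% confidence interval −0.77 to −0.17), which did not pass (limma adjusted p = 0.0653; unadjusted p = 0.00842). Sirt2, a tubulin deacetylase with roles in mitosis, had the smallest difference of the family. Its log2 values were 8.81, 8.80 and 8.79 in the tumours, against 8.99 and 9.0 in the controls. Although the groups did not overlap, the difference was −0.19 (95% confidence interval −0.47 to 0.08; limma adjusted p = 0.361), and 48.3% of all genes had a smaller absolute change.

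Each of the 3 calls was lost when 1 or another array was left out. All 3 were lost when either control was left out, which leaves a single control. Most calls over all genes were lost in those fits too. Without tumour 1 the limma adjusted p was 0.0691 for Sirt3, 0.0596 for Sirt6 and 0.075 for Sirt7. Without tumour 2, Sirt6 (0.0597) and Sirt7 (0.111) lost their calls and Sirt3 kept it (0.0377), and without tumour 3 only Sirt7 lost it (0.0507). The direction of all 7 members was the same in each of the 14 alternatives run. Most of these could not have reversed it, since the groups did not overlap or the estimate was left unchanged.

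**Figure D2:**
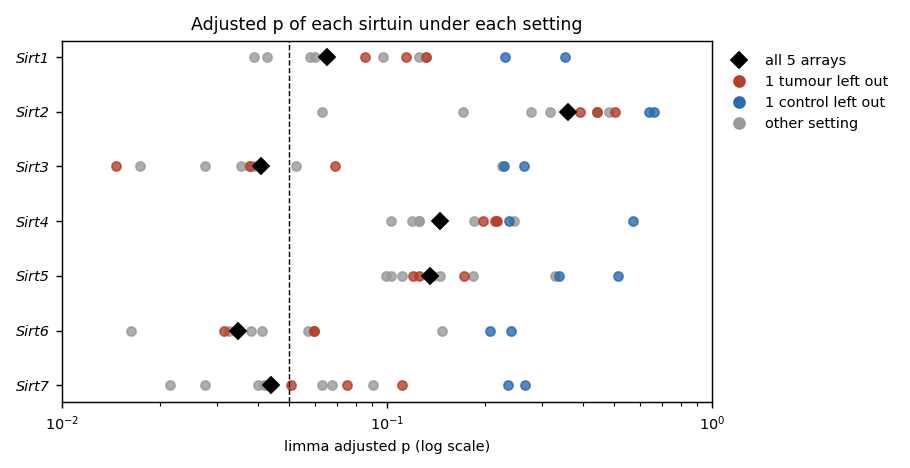
Limma adjusted p (log axis) of each sirtuin with all 5 arrays (black diamonds), with 1 tumour or 1 control left out (red and blue points) and under the other settings (grey). The dashed line is the threshold of 0.05. With either control left out every member lies above the line, in fits with a single control where most calls over all genes were lost. Sirt3 and Sirt6 lay between 0.0146 and 0.0691 with a tumour left out.

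Members were also compared with each other, by the log2 value of one minus that of another on each array. The tumours and the controls did not overlap in 14 of 21 pairs. The share among pairs of other genes was not computed. For the 6 pairs with Sirt6 this follows from Sirt6 being higher in every tumour and the other members lower. The difference of changes was 1.21 for Sirt6 minus Sirt7, −0.90 for Sirt2 minus Sirt6 and −1.17 for Sirt1 minus Sirt6, and it was widest, at −1.97, for Sirt3 minus Sirt6. Each of these pairs had p = 0.1 in the two-sided exact permutation test of 3 tumours against 2 controls, the smallest this design allows, and p = 0.191 after Benjamini-Hochberg adjustment over 21 pairs. Within the mitochondrial members it was −0.66 for Sirt3 minus Sirt5 and −0.87 for Sirt3 minus Sirt4, with the same p-values. In all, 11 of 21 pairs reached this smallest exact permutation p, and the design allows none below it. The pairs share members and so are not independent, and how often pairs of other genes reach it was not tested. The changes of Sirt1 and Sirt7 differed by 0.04 (p = 0.8, exact permutation test), a comparison too small to show that they moved alike.

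The zinc-dependent deacetylases, which share the deacetylase reaction but not the use of NAD+, gave another pattern of counts. Of 11 members, 3 fell, 0 rose and 5 had a negative change, with a median of 0.05. Among the 3 is Hdac3, the gene disrupted in the tumour mice, so its fall was set by the design. The sirtuins had 2 fallen, 1 risen, 6 of 7 negative and a median of −0.47. Among all genes 4.96% fell and 5.60% rose. Whether the families differed was not tested. Hdac3 fell by 1.62, Hdac11, which removes long acyl chains, by 0.85, and Hdac6, like Sirt2 a tubulin deacetylase, by 0.77 (limma adjusted p = 0.00298, 0.0192 and 0.0348). Hdac6 had log2 values of 6.53, 6.84 and 6.87 in the tumours, against 7.43 and 7.61 in the controls. The 8 others did not pass, and their changes ran from −0.32 for Hdac8 to 0.60 for Hdac9, with Hdac1, Hdac2, Hdac4, Hdac5, Hdac7 and Hdac10 between. Hdac3, Hdac6 and Hdac11 lost their calls when either control was left out, as did most called genes. Hdac6 also lost its call without tumour 1 (limma adjusted p = 0.0532) or tumour 2 (0.0727).

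**Figure D3:**
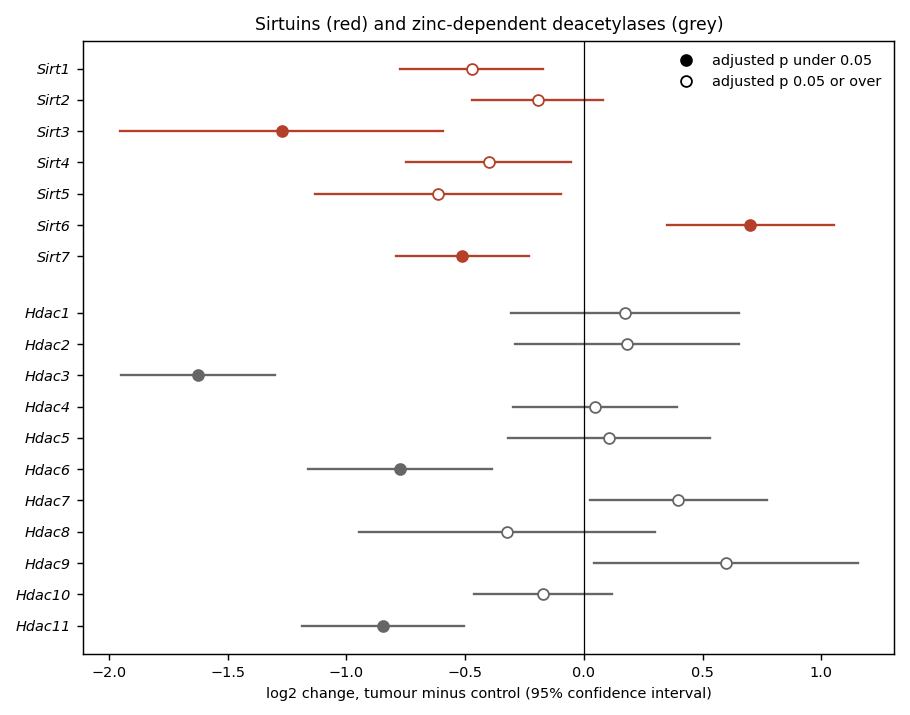
Log2 change of each sirtuin (red) and each zinc-dependent deacetylase (grey), tumour minus control, with its 95% confidence interval from limma. Filled points passed an adjusted p of 0.05. Sirt3, Sirt7, Hdac3, Hdac6 and Hdac11 are filled below 0, and Sirt6 is the only filled point above 0.

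Sirtuins need NAD+, which liver makes from tryptophan through the kynurenine pathway and recovers from nicotinamide through Nampt. Of 17 genes of NAD+ synthesis, 5 fell and 0 rose, 10 had all tumours below both controls, and the median change was −0.78. Over all genes, 4.96% fell, 5.60% rose and 23.1% had all tumours below both controls. The 5 list members that fell were enzymes of the route from tryptophan. Kynu, kynureninase, had log2 values of 9.82, 9.87 and 9.73 in the tumours, against 11.19 and 11.03 in the controls, and fell by 1.31 (limma adjusted p = 0.00427). Afmid, which makes kynurenine from its formyl form, had values of 7.16, 7.89 and 6.35 in the tumours, against 9.54 and 9.67 in the controls, and fell by 2.47 (limma adjusted p = 0.0217). In both genes every tumour was low, and the tumours stood in the same order as for Sirt3, with tumour 2 highest and tumour 3 lowest. Nadsyn1 shared this order, while Ido2 and Qprt had tumour 1 highest. How many of all genes share it was not computed. Ido2, a tryptophan dioxygenase, fell by 1.69, Qprt, which makes the mononucleotide from quinolinate, by 0.84, and Nadsyn1, the NAD+ synthetase, by 0.71 (limma adjusted p = 0.0245, 0.0142 and 0.0401).

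Among the members of this list that did not pass were an enzyme that opens the kynurenine route and one near its end. Tdo2, the main hepatic tryptophan dioxygenase, had log2 values of 10.71, 9.53 and 8.52 in the tumours, against 11.88 in both controls, a difference of −2.30 (limma adjusted p = 0.0643). Haao, which makes quinolinate, had values of 9.32, 9.68 and 7.22 in the tumours, against 11.38 and 11.55 in the controls, a difference of −2.73 (limma adjusted p = 0.0673). In both genes the tumours were all low but far apart. Nampt, the rate-limiting enzyme of the salvage route, had values of 9.45, 9.57 and 9.95 in the tumours, against 9.44 and 9.46 in the controls, a difference of 0.21 (95% confidence interval −0.23 to 0.64; limma adjusted p = 0.55). All 5 calls of this list were lost when either control was left out, as were most calls over all genes. Nadsyn1 was also lost without tumour 1 (limma adjusted p = 0.0744) or tumour 2 (0.0549), and Ido2 without tumour 2 (0.0716). Macrophage markers rose in the same tumours, as given above.

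**Figure D4:**
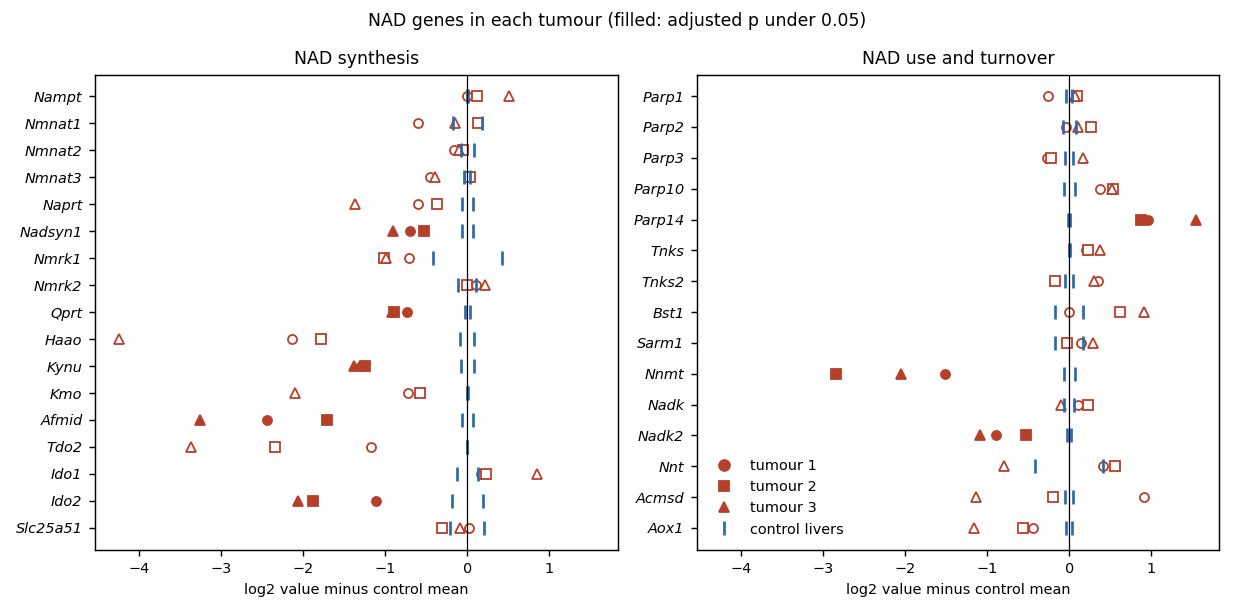
Log2 value of each gene of NAD+ synthesis (left) and of NAD+ use and turnover (right) in tumours 1, 2 and 3 (red circles, squares and triangles), minus the mean of the control livers, with the controls as blue ticks. Filled symbols mark genes that passed a limma adjusted p of 0.05. In the left panel 10 of 17 genes have all tumours below both controls, beside 23.1% of all genes, with Haao in tumour 3 farthest left.

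Of 15 measured genes of NAD+ use and turnover, 1 rose and 2 fell, beside 5.60% and 4.96% of all genes. The median change was 0.08. Parp14, a mono-ADP-ribosyltransferase, rose by 1.12, with log2 values of 8.70, 8.62 and 9.29 in the tumours, against 7.75 and 7.74 in the controls (limma adjusted p = 0.0321). Nnmt, which methylates nicotinamide, fell by 2.14, with values of 7.22, 5.89 and 6.69 in the tumours, against 8.80 and 8.66 in the controls (limma adjusted p = 0.0229). Nadk2, the mitochondrial NAD+ kinase, fell by 0.83 (limma adjusted p = 0.0456). All 3 calls were lost when either control was left out, as were most calls over all genes. Nadk2 was also lost without tumour 1 (limma adjusted p = 0.0898).

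Of 9 genes whose products are known to regulate sirtuin genes or proteins, 2 rose, 0 fell and 7 did not pass. Among all genes 5.60% rose and 4.96% fell. The median change of the 9 was 0.21. Myc had log2 values of 8.53, 9.44 and 9.38 in the tumours, against 7.02 and 7.14 in the controls, and rose by 2.04 (limma adjusted p = 0.0129). Arntl, which encodes the clock protein Bmal1, had values of 6.11, 5.81 and 6.43 in the tumours, against 5.29 and 4.80 in the controls, and rose by 1.07 (limma adjusted p = 0.042). The hour at which livers were taken is not stated in the labels. Both products are known to bind CACGTG, the letters marked above in the promoter of Sirt1, whose own level was lower in all tumours and did not pass the test. Binding was not measured here. Both calls were lost when either control was left out, as were most calls over all genes. That of Arntl was also lost without tumour 1 (limma adjusted p = 0.0782) or tumour 2 (0.0502).

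Known protein substrates of the sirtuins were examined at the transcript level, which does not measure acylation. Of 15 measured substrates outside mitochondria, 5 fell and 0 rose, beside 4.96% and 5.60% of all genes, and the median change was −0.71. The nuclear receptors Nr1h3 (LXRalpha) and Nr1h4 (FXR) fell by 0.93 and 1.38, the lipogenic factor Srebf1 by 1.05, the gluconeogenic coactivator Crtc2 by 0.71 and the clock gene Per2 by 0.87 (limma adjusted p between 0.0181 and 0.0352). Crtc2 had log2 values of 7.19, 6.93 and 7.12 in the tumours, against 7.78 and 7.80 in the controls, with a gap of 0.59 between the groups, larger than the range of either. All 5 calls were lost when either control was left out, as were most calls over all genes. Crtc2 (limma adjusted p = 0.0684), Nr1h3 (0.0531) and Per2 (0.0909) were also lost without tumour 2, and Nr1h4 without tumour 1 (0.066).

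Of 17 measured mitochondrial substrates of Sirt3, Sirt4 and Sirt5, 2 fell and 0 rose. This was near the 10.6% of all genes called in either direction. The median change was −0.42. The median by tumour was −0.39 in tumour 1, 0.07 in tumour 2 and −0.54 in tumour 3, so tumour 2 did not share its sign. Otc, a Sirt3 substrate of the urea cycle, fell by 3.83, and Sdha, a respiratory chain subunit and Sirt3 substrate, by 0.90 (limma adjusted p = 0.0044 and 0.013). Otc had log2 values of 7.16, 6.63 and 5.83 in the tumours, against 10.38 and 10.37 in the controls, the widest gap among the genes named here. Sdha had log2 values of 10.53, 10.30 and 10.37 in the tumours, against 11.31 and 11.29 in the controls. Both calls were lost when either control was left out, as were most calls over all genes.

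Genes described as repressed through Sirt6, mostly of glycolysis, were split in direction. Of 11 measured, 2 fell and 0 rose, beside 4.96% and 5.60% of all genes. Changes were negative for 6 and positive for 5, and the median was −0.04. Aldoc, an aldolase, fell by 1.80, with log2 values of 6.64, 6.24 and 6.67 in the tumours, against 8.45 and 8.19 in the controls, and Pfkm, a phosphofructokinase, fell by 0.87 (limma adjusted p = 0.00472 and 0.0382). Both calls were lost when either control was left out, as were most calls over all genes. That of Pfkm was also lost without tumour 1 (limma adjusted p = 0.0754) or tumour 2 (0.0953). In the list of ribosomal RNA synthesis and Sirt7 substrates, 0 of 13 passed limma's test and 3 had an unadjusted p under 0.05, with a median of 0.23. Over all 19938 genes, 5023 had an unadjusted limma p under 0.05. Changes were positive for 11 of the 13 and negative for 2, while 52.9% of all genes were negative. All tumours lay above both controls for 6 and below both for 0, beside 21.1% and 23.1% of all genes. Mybbp1a, a regulator of ribosomal RNA genes, had values of 8.58, 9.06 and 9.68 in the tumours, against 8.03 and 8.01 in the controls, a difference of 1.08 (limma adjusted p = 0.0865). The difference of Polr1a, the large subunit of RNA polymerase I, was 0.54 (limma adjusted p = 0.17).

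The genes whose 5 values followed those of a called sirtuin most closely were found among 9915 others (those whose log2 values averaged 6 or more), by the root mean square difference of the values after each gene's own mean was subtracted. For Sirt6 they were Ap1s1, Wnk1 and Spats2, with differences of 0.01, 0.03 and 0.04 log2 units and rises of 0.69, 0.67 and 0.68. For Sirt7 they were Taz (tafazzin), Zfp263 and Dhx16, at 0.01, 0.02 and 0.02. For Sirt3 they were Vwce, Echdc1 and Ugt2b38, at 0.04, 0.05 and 0.06. Ap1s1, for example, had log2 values of 8.59, 8.53 and 8.81 in the tumours, against 7.99 and 7.93 in the controls. How close the nearest genes of any other gene come was not tested.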

How the data were processed

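The authors deposited log2 values, 1 for each probe set on each array. The submitters' processing notes list GCOS and RMA without saying how each was used. RMA as such adjusts for background, makes the arrays' distributions equal and combines the probes of a set, and it tends to compress large changes. The genome build used upstream is not stated. Of 28853 probe sets, 21789 had 1 gene symbol in the platform's annotation, 1621 had several and 5443 had none, and only the first kind was tested. For 999 genes with several probe sets, the one with the highest mean over the 5 arrays was used. No filter on dim genes was applied, and 0 columns of other samples were present.

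Tumour minus control was fitted to all 5 arrays and 19938 genes in limma (version 3.58.1, R version 4.3.3) by lmFit and eBayes. The model had 3 residual and 2.98 prior degrees of freedom and no further term. P-values were two-sided with Benjamini-Hochberg adjustment over all genes at a threshold of 0.05. "Rose" and "fell" mean past that threshold. Groups come from the sample titles. The labels name no batch. Tables were joined with Python 3.11.15 and pandas 2.3.3, and figures were drawn with matplotlib 3.10.9.

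The members and gene lists were chosen with earlier results of these data known. The text names all sirtuins and zinc-dependent deacetylases as groups, up to 4 called members of each other list with the smallest p (or the 2 smallest where none was called) and the 3 genes most like each called sirtuin. Nadsyn1, Per2, Tdo2, Haao, Nampt, Clec4f, Cd5l and the genes beside sirtuin start sites lie outside that rule and were chosen after values were seen. Alternatives were repeated quantile normalisation, arrays shifted to a common median, a filter on the dimmest 40% of genes, other ways to treat probe sets, a variance trend, array weights, a replicate block, no moderation, thresholds of 0.1 and 0.01, and leaving out each array (a single remaining control then takes its spread from the tumours). Coordinates of promoters are those of RefSeq on GRCm38.p6.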

Additional observations from a re-analysis of the deposited data

How the results depend on the processing

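With 5 arrays, 2 of them controls, the calls depended on the normalisation and on how the spread was estimated. All 7 sirtuins kept their direction in all 14 alternatives, but most of these could not have reversed it. The groups did not overlap, so leaving out, weighting or blocking arrays could not change a sign. The dim filter, the treatments of probe sets, the trend and the lack of moderation left each estimate unchanged. Only repeated quantile normalisation and the common median could have reversed a sign. Sirt1 passed the threshold with arrays shifted to a common median (−0.57, limma adjusted p = 0.039) and with array weights (−0.46, 0.0428). Sirt3 did not pass after repeated quantile normalisation (−1.31, 0.0524) or without moderation of the variances (−1.27, 0.226). Sirt6 did not pass with a replicate block (0.61, 0.057) or without moderation (0.70, 0.147). Sirt7 did not pass with a variance trend (−0.51, 0.0674), a replicate block (−0.51, 0.0905) or no moderation (−0.51, 0.063). Tumour 3 was the only array with replicate number 3, so it had no part in the changes estimated with the block. Those changes equalled the ones without tumour 3, at 0.61 for Sirt6 and −0.51 for Sirt7. The number of risen sirtuins was 0 with the replicate block, without moderation and at a threshold of 0.01, and that of fallen sirtuins was 1 after quantile normalisation, with the trend and with the block, and 0 without moderation and at 0.01. With arrays left out one at a time, the change ran from −0.56 to −0.39 for Sirt1, −0.20 to −0.19 for Sirt2, −1.48 to −1.02 for Sirt3, −0.55 to −0.25 for Sirt4, −0.74 to −0.44 for Sirt5, 0.61 to 0.77 for Sirt6 and −0.53 to −0.50 for Sirt7. Between 0 and 1 sirtuins then rose and between 0 and 1 fell.

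Over all genes, 1117 rose and 989 fell. The counts were 1727 and 1525 with array weights, 6 and 12 without moderation, 1743 and 1583 at a threshold of 0.1, and 291 and 214 at 0.01. Leaving out 1 array gave 62 to 1465 risen and 46 to 1254 fallen genes. The common median gave 949 risen and 1275 fallen genes, so the share of rises depended on that scaling. Over the gene lists other than the sirtuins and the cell type markers, 3 members rose and 19 fell, beside 5.60% and 4.96% of all genes. The size of each list is given above. These lists include the zinc-dependent deacetylases, with 3 of the falls, among them that of Hdac3, set by the design. With array weights and at a threshold of 0.1, 5 members rose. Without moderation 0 rose and 0 fell, and at 0.01 0 rose and 4 fell. Leaving out 1 array gave 0 to 5 risen and 0 to 28 fallen list members. The sample titles give replicate numbers but state no pairing. The deviations of same-numbered arrays correlated at 0.0039 and −0.0129. These values cannot decide whether the numbers pair the samples, since the deviations of 2 controls mirror each other. With the block 1342 genes rose and 1034 fell. The cause of these changes was not tested.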

Other observations

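The protein-coding genes nearest upstream of the sirtuins within 1000 bases, by the gene order of GRCm38.p6, were looked up after the members' values were seen. There were 4, with limma adjusted p-values between 0.0893 and 0.6, so none is called changed. Psmd13, a proteasome subunit gene whose start site faces that of Sirt3 on the opposite strand, had log2 values of 8.71, 9.04 and 9.01 in the tumours, against 8.39 and 8.43 in the control livers, a difference of 0.51 (limma adjusted p = 0.0893). All tumours were above both controls for Psmd13 and below both for Sirt3. Nfkbib, which encodes an inhibitor of NF-kB and faces Sirt2, had values of 8.63, 9.03 and 8.71 in the tumours, against 8.37 and 8.33 in the controls, a difference of 0.44 (limma adjusted p = 0.147). It too lay above both controls in every tumour, while Sirt2 lay below both. The difference was 0.17 for Ankrd24, beside Sirt6 (limma adjusted p = 0.6), and −0.29 for Mafg, beside Sirt7 (limma adjusted p = 0.357). Both had the sign of their sirtuin. All tumours were below both controls for Mafg, as for Sirt7, while the groups overlapped for Ankrd24. Over all genes, all tumours lay above both controls for 21.1% and below both for 23.1%. No test compared a sirtuin with its neighbour.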
